A study of Homo sapiens with 6 samples.

Results

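Interferon-stimulated genes are the genes that cells switch on when interferons, the secreted alarm signals of viral infection and of activated lymphocytes, bind their receptors. The 59 genes described here were chosen by name as targets of type I and gamma interferon and the factors that drive them. All 59 were matched by symbol to an Ensembl identifier, out of 60617 identifiers counted in every tumour. Type I interferons signal through a complex of STAT proteins with IRF9 that binds the interferon-stimulated response element. Gamma interferon signals through JAK kinases and a STAT dimer that binds the gamma-activated site. In melanoma these genes mark exposure to interferon, and gamma interferon is also the classical inducer of CIITA, the master regulator of MHC class II genes.

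The tumours were grown as xenografts from the established human melanoma line WM983-B, and RNA sequencing was done on 6 of them. In one group of 3 tumours the hosts were treated systemically with anle138b, a small molecule of the diphenyl-pyrazole class directed at aggregates of α-synuclein, and the other group of 3 was untreated. All 6 share the cell line and the xenograft setting, while host strain, dose and duration of treatment were not stated in the labels. The titles fall into 2 naming sets, called here blau and Juni2018 after a word in each title, and what the sets stand for was not given. The blau set holds anle138b replicate 3 and untreated replicate 3, and the Juni2018 set holds replicates 1 and 2 of both groups. Totals were 27599159 and 22768826 counts in the treated and the untreated blau library, against 12400782 to 15865560 in the 4 Juni2018 libraries. The sets lay apart on a first principal component with 53.8% of the variance. Nothing in the labels says that the tumours came from separate animals, so every p-value measures the spread between these libraries only. The melanocyte lineage genes SOX10, MITF, MLANA, PMEL, TYR and S100B summed to between 10910 and 15950 CPM (counts scaled to a fixed library total) in every tumour, and the T cell receptor subunit gene CD3D had no count in any. In bulk tumours, fewer cells of a type and less RNA per cell cannot be told apart. How mouse reads of the host were treated was not given either.

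The stretches before the starts of 10 of these genes are shown because they carry the letters that interferon-activated factors recognise, in genes that differed between the tumours and in genes that did not. Each line runs 5′ to 3′ along the gene's own strand, with the match nearest the start in capitals (RefSeq, GRCh38.p14). The first 8 lines hold a response element, searched on both strands as GAAA, any 2 bases and GAAA again. The last 2 hold a gamma-activated site, searched as TTC, any 3 bases and GAA, which reads the same on both strands. The IFI27, IFITM3, ISG15 and IFIT1 lines each hold a further response element match, left in lower case or, for ISG15, overlapping the capitals. Matches of the 2 kinds can also overlap, as they do before IFI27.
SECTM1: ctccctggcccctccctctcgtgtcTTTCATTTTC
IFI27: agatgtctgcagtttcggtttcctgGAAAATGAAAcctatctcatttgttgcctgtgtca
IFITM3: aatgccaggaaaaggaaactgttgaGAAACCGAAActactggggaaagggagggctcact
IFI44L: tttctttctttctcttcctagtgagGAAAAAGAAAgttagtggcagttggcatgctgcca
PARP9: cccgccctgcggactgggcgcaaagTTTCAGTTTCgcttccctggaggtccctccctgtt
IFIH1: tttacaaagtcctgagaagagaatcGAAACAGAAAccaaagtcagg
ISG15: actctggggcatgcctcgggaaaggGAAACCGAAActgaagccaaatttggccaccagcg
IFIT1: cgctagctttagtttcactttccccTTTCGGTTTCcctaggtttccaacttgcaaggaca
OAS1: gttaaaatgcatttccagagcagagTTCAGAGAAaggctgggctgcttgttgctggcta
IRF1: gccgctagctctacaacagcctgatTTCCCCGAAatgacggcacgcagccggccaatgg
The SECTM1 stretch lies at chr17:82333760-82333794 on the minus strand, and its match begins 3 bases before the start and runs past it. The IFI27 stretch lies at chr14:94110616-94110675 on the plus strand, with the match beginning 95 bases before the start. The IFITM3 stretch lies at chr11:320861-320920 on the minus strand, with the match beginning 35 bases before the start. That of IFI44L is at chr1:78620350-78620409, that of ISG15 at chr1:1013365-1013424, that of IFIT1 at chr10:89392495-89392554 and that of OAS1 at chr12:112906769-112906827, all on the plus strand. PARP9 (chr3:122564307-122564366), IFIH1 (chr2:162318685-162318730) and IRF1 (chr5:132490864-132490922) lie on the minus strand.

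Promoter windows from 250 bases before to 50 bases after the start were held for 46 of the 59 genes. A response element match was present for 28 of the 46, or 60.9%, against 4.38% of 27305 symbols in the same table. A gamma-activated site match was present for 14 of the 46, or 30.4%, against 9.38% of all symbols. Such matches describe letters in the window and do not show that a factor was bound. The genes with no entry were IRF2, IRF7, USP18, GBP2, APOL1, APOL6, CASP1, IFIT2, MX2, OAS2, OASL, IFITM2 and TRIM22.

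Levels per length ran from near the counting floor to abundant transcripts. As means over 6 tumours, in CPM per kilobase of exon, WARS1, the tryptophanyl-tRNA synthetase, stood at 51.6, BST2, the virion tether, at 51.4, IFI6, a small membrane protein, at 48.4, STAT2 at 44.9 and the gamma interferon receptor chain IFNGR2 at 30.3. The lowest were XAF1, a binding partner of the apoptosis inhibitor XIAP, at 0.0767, EPSTI1 at 0.141 and SOCS1, an inhibitor of JAK kinases, at 0.202. These 3 did not pass the filter on low counts, which left 56 genes for the tests. SOCS1 had 2, 3 and 11 counts in treated against 6, 11 and 5 counts in untreated tumours. XAF1 had 1, 2 and 43 counts in treated against 3, 0 and 26 counts in untreated tumours, and EPSTI1 had 7, 4 and 44 against 8, 1 and 28. A level of 3 counts stands for 0.109 to 0.242 CPM of a library's unscaled total.

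**Figure D1:**
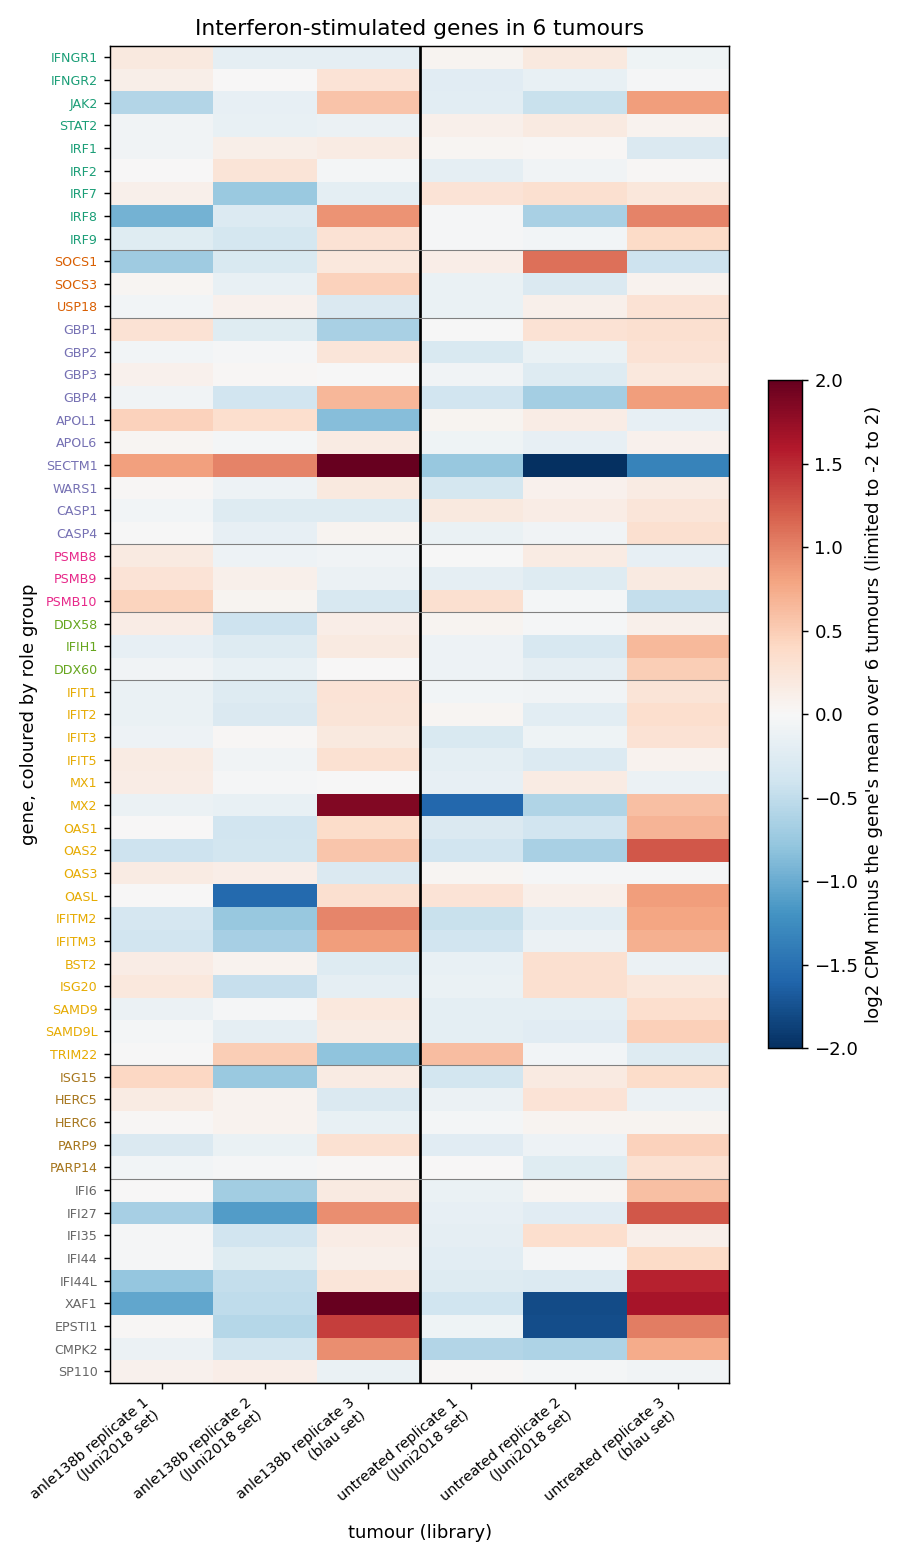
Heat map of the 59 interferon-stimulated genes (rows, in role groups) in the 6 tumours (columns), as log2 CPM minus the gene's mean over the 6 tumours. SECTM1 is high in the 3 anle138b tumours, while IFI27, IFITM2, IFITM3, OAS2, XAF1 and CMPK2 are high in the replicate 3 tumour of both groups.

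The first comparison asked which interferon-stimulated genes differed between anle138b and untreated tumours, in a study whose title is about MHC class II. SECTM1, a secreted and transmembrane ligand of the CD7 receptor on T cells, rose, and the other 55 genes did not pass the test. Of all 20423 genes tested, 1.05% were called, 0.656% higher and 0.397% lower, so 1 of 56 (1.79%) is near the background. None of the 56 was called lower at an adjusted p under 0.05 by edgeR's quasi-likelihood test, by DESeq2 or by limma voom. By edgeR 5 lower genes had an unadjusted p under 0.05, namely STAT2, IRF7, CASP1, IFI27 and IFI44L. The median log2 fold change of the 56 genes was -0.06, with quartiles of -0.18 and 0.07, against -0.01 over all genes tested, with quartiles of -0.16 and 0.10. Of the 56 log2 fold changes, 50 lay between -0.5 and 0.5.

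SECTM1 (chromosome 17, 82321024 to 82334074 on GRCh38) had 0.765, 0.879 and 2.62 CPM in treated against 0.183, 0 and 0.0849 CPM in untreated tumours. All treated tumours stood above all untreated ones, and the untreated values came from 3, 0 and 2 counts, at or under the level of 3 counts. SECTM1 therefore passed the filter on low counts through the treated tumours alone, where it is high, and it did not pass the stricter filter of 50 counts in 3 libraries. A gene that enters in this way had to differ, so the call describes these libraries and supports nothing further. The log2 fold change was 3.94 ± 0.59 (SE, n = 3 per group; edgeR quasi-likelihood test, adjusted p = 0.0130). The summed counts of 95 in treated and 5 in untreated tumours give a ratio of 18.9 after scaling, with an exact 95% interval of 7.81 to 59.5 that covers counting error only. Within the Juni2018 set the treated mean was higher by 2.36 on the log2 CPM scale, and in the blau pair by 3.80. The call was lost without anle138b replicate 3 (log2 fold change 2.95, edgeR adjusted p = 0.320), without untreated replicate 3 (2.96, edgeR adjusted p = 0.237) and without the term for the naming set (3.92, edgeR adjusted p = 0.317).

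CIITA, which gamma interferon can induce, had 33.9, 37.9 and 31.1 CPM in treated against 10.2, 11.6 and 8.61 CPM in untreated tumours. Its log2 fold change was 1.77 ± 0.12 (SE, n = 3 per group; edgeR adjusted p = 0.000230), and the groups lay far apart. Of the 10 gamma interferon targets in the same tumours 1 was called higher, 0 fell and 9 did not pass, with a group median of 0.06. The called gene was SECTM1, which entered through the treated tumours alone, so the count supports nothing further. Over all genes tested 0.656% were called higher and 0.397% lower. The guanylate-binding GTPases GBP2, GBP3 and GBP4 had log2 fold changes of 0.10 ± 0.11, 0.06 ± 0.14 and 0.11 ± 0.20, and GBP1 one of -0.41 ± 0.21. WARS1 had 331, 302 and 371 CPM in treated against 255, 346 and 363 CPM in untreated tumours, and these ranges overlap. CASP1, the protease that activates interleukin 1β, had 8.26, 7.19 and 7.15 CPM in treated against 9.80, 9.48 and 10.1 CPM in untreated tumours. The treated values all lay below the untreated ones, but the log2 fold change of -0.39 ± 0.15 did not pass (edgeR adjusted p = 0.464). CASP4, the sensor caspase for bacterial lipopolysaccharide, had a value of -0.09 ± 0.11, and the apolipoprotein L genes APOL1 and APOL6 had -0.03 ± 0.19 and 0.11 ± 0.09. The 3 catalytic subunits of the immunoproteasome, PSMB8, PSMB9 and PSMB10, had values of 0.01 ± 0.11, 0.15 ± 0.19 and 0.12 ± 0.19.

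Among the 9 receptors, kinase and transcription factors none passed by edgeR, DESeq2 or limma voom, and the group median was -0.12. STAT2 had 261, 245 and 252 CPM in treated against 292, 308 and 288 CPM in untreated tumours. The groups did not overlap, and the difference was -0.23 ± 0.09 (edgeR adjusted p = 0.499). IRF7, the main activator of the alpha interferon genes, had 8.79, 4.87 and 7.15 CPM in treated against 9.93, 10.3 and 9.55 CPM in untreated tumours. Its groups did not overlap either, with a log2 fold change of -0.51 ± 0.21 (edgeR adjusted p = 0.511). IFNGR2 had a value of 0.27 ± 0.09 (edgeR adjusted p = 0.338) and its partner chain IFNGR1 one of -0.11 ± 0.12. IFNGR2 shares exon bases with TMEM50B on the opposite strand, and a library kit that does not mark strand leaves their reads unseparated there. JAK2, the kinase bound to this receptor, had -0.12 ± 0.15, IRF9 had -0.19 ± 0.16, IRF2, a repressor of interferon-driven transcription, had 0.15 ± 0.13, and IRF8, best known from myeloid cells, had -0.21 ± 0.32. IRF1, itself a classical target of gamma interferon, had 9.02, 10.3 and 10.6 CPM in treated against 9.74, 9.56 and 7.72 CPM in untreated tumours, so the groups overlap. Of the feedback inhibitors, SOCS3 had a log2 fold change of 0.24 ± 0.12 and USP18, which removes ISG15 from proteins and restrains the type I receptor, one of -0.20 ± 0.20.

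The 17 antiviral effectors had a median log2 fold change of -0.06, and edgeR called none of them. MX2, a dynamin-like GTPase that blocks nuclear entry of HIV, had 2.52, 2.48 and 10.3 CPM in treated against 0.853, 1.78 and 4.24 CPM in untreated tumours. Treated tumours were higher within each naming set, though the groups overlap across sets. Its log2 fold change was 1.12 ± 0.26 (edgeR adjusted p = 0.102), and it did pass by limma voom (1.19, adjusted p = 0.0488) and by DESeq2 (1.11, adjusted p = 0.0361). Over its 15 alternatives the adjusted p ran from 0.00128 to 0.9999. Its paralogue MX1 had a value of 0.08 ± 0.16. The viral RNA binders IFIT1, IFIT2, IFIT3 and IFIT5 had values of -0.08 ± 0.14, -0.11 ± 0.14, 0.07 ± 0.11 and 0.27 ± 0.12. OAS1, OAS2 and OAS3, which make the activator of RNase L, had values of -0.03 ± 0.17, -0.28 ± 0.25 and 0.00 ± 0.11, and their catalytically inactive relative OASL one of -0.72 ± 0.40. IFITM2 and IFITM3, which hinder the fusion of viruses with cell membranes, had values of -0.06 ± 0.16 and -0.13 ± 0.14. BST2, the exonuclease gene ISG20, SAMD9, SAMD9L and the ubiquitin ligase gene TRIM22 lay between -0.27 and 0.04.

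The cytosolic RNA sensors DDX58 (RIG-I) and IFIH1 (MDA5) and their relative DDX60 had log2 fold changes of -0.06 ± 0.18, -0.18 ± 0.13 and -0.16 ± 0.14. ISG15, the ubiquitin-like modifier, had 3.52, 1.52 and 2.94 CPM in treated against 2.01, 2.96 and 3.39 CPM in untreated tumours, and the ranges overlap (-0.06 ± 0.31). HERC5, its ligase, had a value of -0.04 ± 0.14, HERC6 one of -0.04 ± 0.14, and PARP9 and PARP14 of the ADP-ribosyltransferase family had -0.09 ± 0.10 and -0.05 ± 0.11. Among the other type I targets IFI44L had the lowest log2 fold change (-0.80 ± 0.25, edgeR adjusted p = 0.263), followed by IFI27 (-0.53 ± 0.18, edgeR adjusted p = 0.325). IFI27 had 4.67, 3.36 and 14.3 CPM in treated against 6.64, 6.37 and 17.7 CPM in untreated tumours. The treated tumours were lower within each set, and the step between the sets was larger than that between the groups. CMPK2, a mitochondrial nucleotide kinase, had 0.29 ± 0.20, SP110, a nuclear body protein, 0.06 ± 0.10, and IFI6, IFI35 and IFI44 had -0.32 ± 0.16, -0.17 ± 0.17 and -0.11 ± 0.13.

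**Figure D2:**
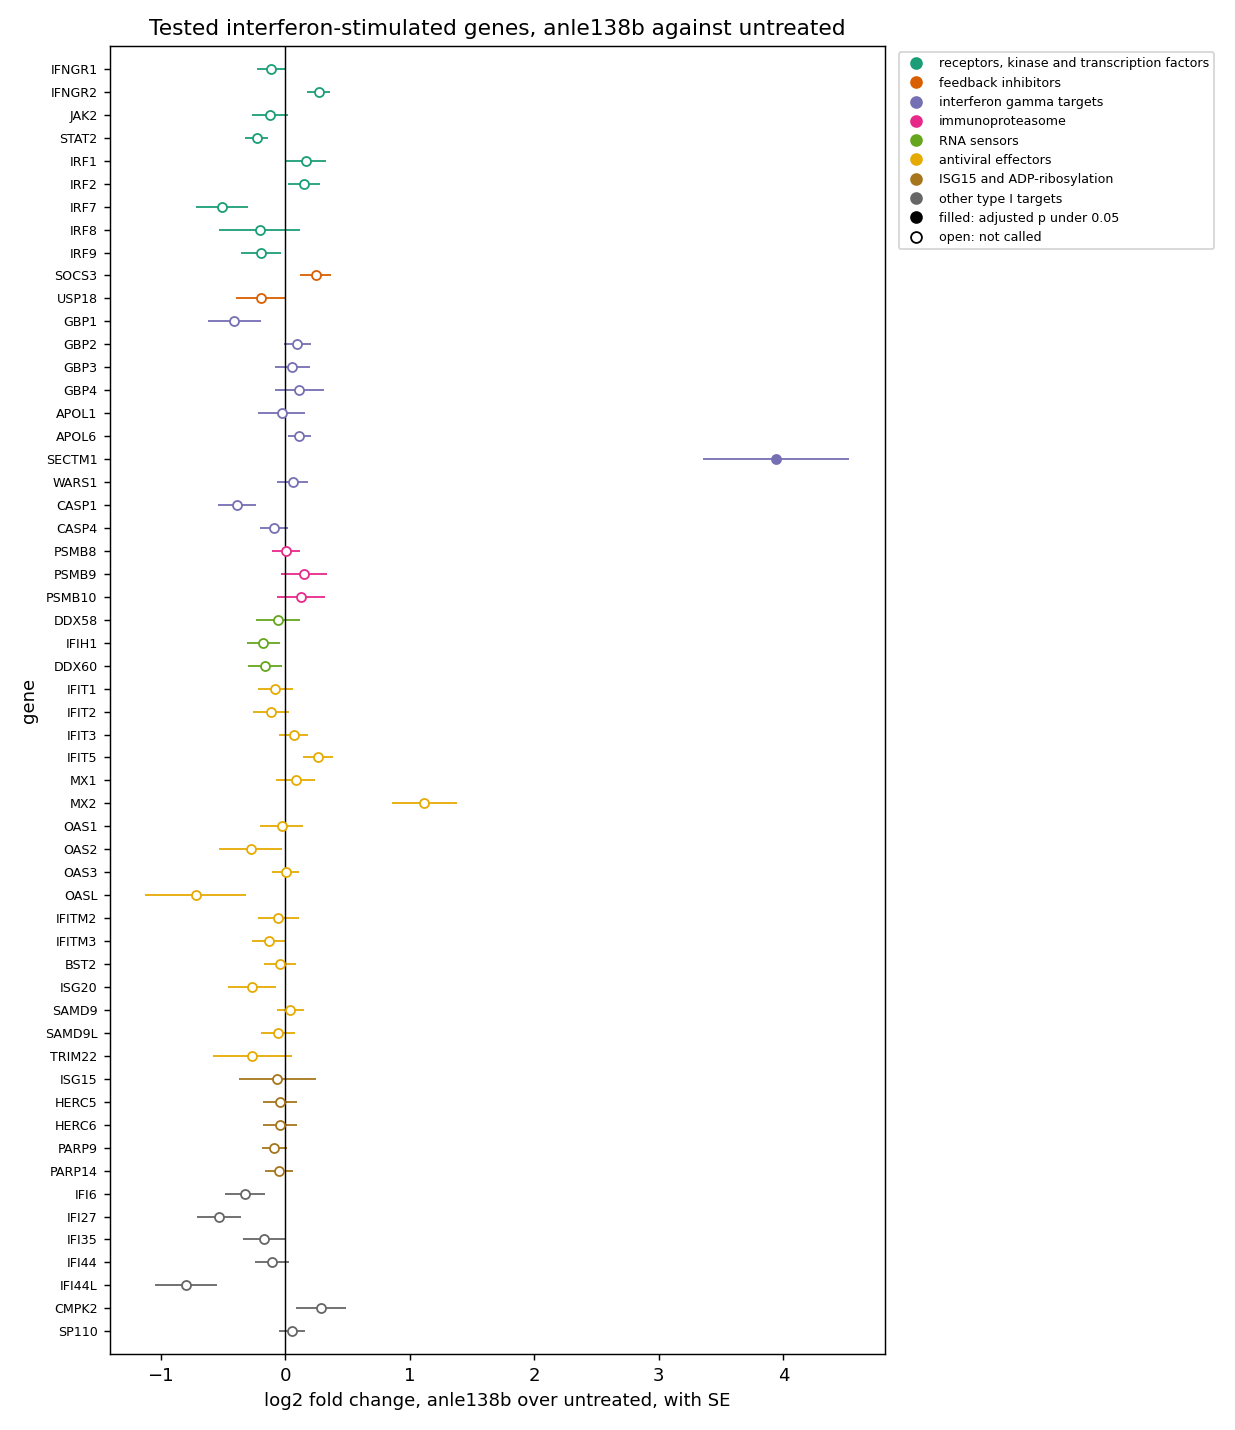
Log2 fold change, anle138b over untreated, with its standard error, for each of the 56 tested genes, coloured by role group and filled where the adjusted p was under 0.05. SECTM1, at 3.94, is the filled point, and MX2, at 1.12, is the next highest.

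Treated tumours stood above untreated ones within both naming sets for 6 genes (IFNGR2, APOL6, SECTM1, IFIT5, MX2 and CMPK2), or 10.7% of those tested, against 9.52% of all genes. They stood below within both sets for 7 genes (STAT2, IRF7, IRF9, CASP1, OASL, IFI27 and IFI44L), or 12.5%, against 10.4% of all genes. Both shares are near the background. Among unadjusted p-values by edgeR, 8 of 56 were under 0.05 (14.3%), against 8.49% of all genes. Markers of other cell types gave overlapping sums in the treatment groups. The myeloid list of 11 genes, with PTPRC, CD14 and CSF1R among them, summed to 34.8 to 55.3 CPM in treated and 28.96 to 49.5 CPM in untreated tumours. The lymphocyte list of 8 genes summed to 0.799 to 1.22 CPM in treated and 0.731 to 2.67 CPM in untreated tumours. LUM was the 1 of 7 fibroblast genes called higher with treatment, and that list summed to 382 to 651 CPM in treated and 358 to 448 CPM in untreated tumours. These lists are of human genes in xenografts of a human line, so their sums do not measure the amount of host cells. The part of these cell types in the levels above was not tested.

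The second comparison set the naming sets against each other, with treatment in the same fit. Here 17 of 56 interferon-stimulated genes were higher in the blau set and 1 was lower. These are shares of 30.4% and 1.79%, against 8.32% and 7.14% of all genes tested. The median log2 fold change, blau over Juni2018, was 0.28 for the 56 genes, with quartiles of -0.02 and 0.59, against -0.02 for all genes, with quartiles of -0.28 and 0.26. Both blau libraries stood above all 4 Juni2018 libraries for 29 genes, or 51.8% against 19% of all genes. They stood below all 4 for 6 genes, or 10.7% against 19.4%. The 59 genes together took 0.204% and 0.221% of counts in the treated and the untreated blau tumour, against 0.173% to 0.177% in the Juni2018 tumours. With libraries scaled by size alone, 21 of the 56 genes were higher and 1 lower, and over all genes 2244 were higher and 1242 lower, against 1699 and 1458 with the scaling used here.

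**Figure D3:**
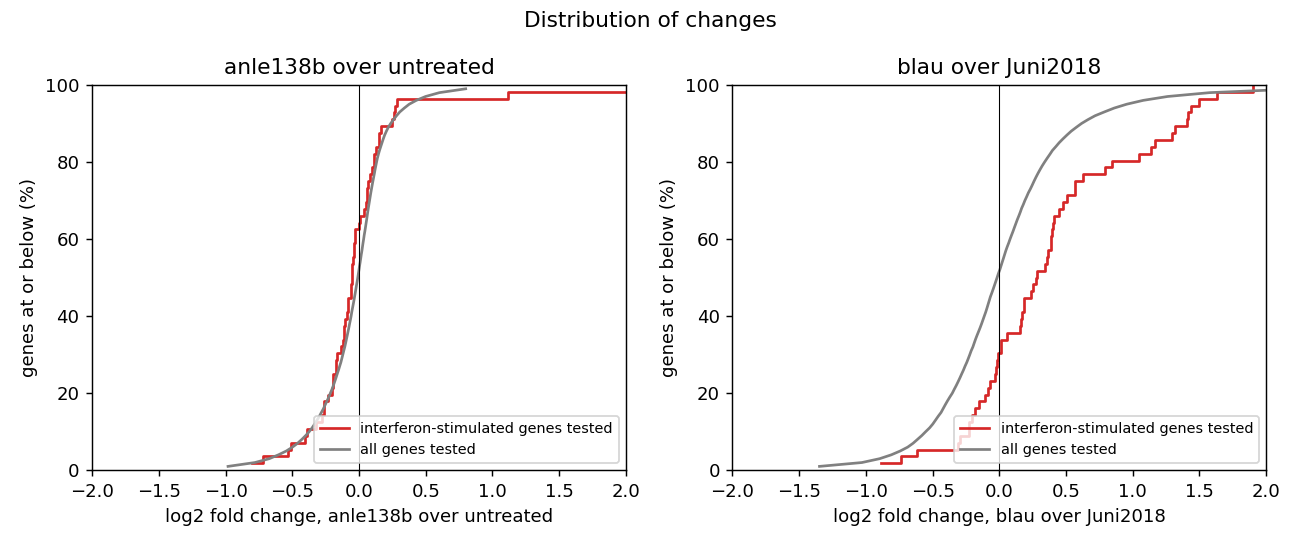
Cumulative distribution of log2 fold changes for the 56 tested interferon-stimulated genes (red) and all genes tested (grey), for anle138b over untreated (left) and blau over Juni2018 (right), on an axis that leaves SECTM1, at 3.94, outside the left panel. The medians of the red and the grey line are -0.06 and -0.01 on the left and 0.28 and -0.02 on the right.

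The antiviral effectors held 7 of the 17 higher genes and had a group median of 0.41. Of each pair of blau values below, the treated tumour's is named before the untreated tumour's. MX2 had 10.3 and 4.24 CPM in the blau tumours, against 0.853 to 2.52 CPM in the Juni2018 tumours. Its log2 fold change was 1.90 ± 0.25 (edgeR adjusted p = 0.00123). IFITM3 had 55.0 and 50.5 CPM in the blau tumours, against 19.3 to 28.4 CPM in the Juni2018 tumours, a log2 fold change of 1.16 ± 0.14 (edgeR adjusted p = 0.000707). For both genes the sets did not overlap. IFITM2 had 24.7 and 21.7 CPM in the blau tumours, against 7.35 to 10.8 CPM in the Juni2018 tumours, a value of 1.32 ± 0.16 (edgeR adjusted p = 0.000855). IFITM2 and IFITM3 are near-identical in sequence, so the split of reads between them is uncertain. OAS2 had 3.72 and 6.07 CPM in the blau tumours, against 1.56 to 1.92 CPM in the Juni2018 tumours (1.42 ± 0.25, edgeR adjusted p = 0.00571), and OAS1 was higher by 0.79 ± 0.17. SAMD9 and SAMD9L, antiviral genes that lie side by side on chromosome 7, were higher by 0.41 ± 0.11 and 0.48 ± 0.14. Other effectors did not pass the test. OAS3 had a value of -0.23 ± 0.12, BST2 -0.30 ± 0.14, MX1 -0.11 ± 0.17 and TRIM22 -0.89 ± 0.33. IFIT1, IFIT2 and IFIT3 had values of 0.40 ± 0.14, 0.45 ± 0.14 and 0.36 ± 0.12, with edgeR adjusted p of 0.0906, 0.0656 and 0.0716.

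Of the other type I targets 4 of the 7 tested were higher in the blau set. IFI27 had 14.3 and 17.7 CPM in the blau tumours, against 3.36 to 6.64 CPM in the Juni2018 tumours. Its log2 fold change was 1.63 ± 0.17 (edgeR adjusted p = 0.000364), and the sets did not overlap. IFI44L had 4.25 and 10.6 CPM in the blau tumours, against 2.07 to 2.98 CPM in the Juni2018 tumours, a value of 1.41 ± 0.24 (edgeR adjusted p = 0.00533), with the untreated blau tumour well above the treated one. CMPK2 had 6.48 and 5.69 CPM in the blau tumours, against 2.15 to 3.06 CPM in the Juni2018 tumours (1.29 ± 0.19, edgeR adjusted p = 0.00269), and IFI6 was higher by 0.57 ± 0.17 (edgeR adjusted p = 0.0495). XAF1 and EPSTI1, below the filter, also stood apart. XAF1 had 1.52 and 1.10 CPM in the blau tumours, against 0 to 0.183 CPM in the Juni2018 tumours, and EPSTI1 had 1.56 and 1.19 CPM in the blau tumours, against 0.0741 to 0.535 CPM in the Juni2018 tumours. With the filter set by naming set, a choice made after seeing the data, both would enter through the blau tumours alone, where they are high, so their values are given with no test.

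Upstream, JAK2 had 27.7 and 33.4 CPM in the blau tumours, against 12.5 to 16.7 CPM in the Juni2018 tumours. Its log2 fold change was 1.05 ± 0.15 (edgeR adjusted p = 0.00174). IRF8 had 1.95 and 2.08 CPM in the blau tumours, against 0.459 to 0.974 CPM in the Juni2018 tumours (1.49 ± 0.31, edgeR adjusted p = 0.0140), and neither gene's sets overlap. The receptor chains IFNGR1 and IFNGR2, STAT2, IRF1, IRF2 and IRF7 lay between -0.21 and 0.19, none past the test, and IRF9 had a value of 0.51 ± 0.16 (edgeR adjusted p = 0.0655). Of the gamma interferon targets GBP4 was higher, with 8.85 and 9.97 CPM in the blau tumours, against 3.41 to 5.28 CPM in the Juni2018 tumours (edgeR adjusted p = 0.00533). GBP2 was higher by 0.39 ± 0.11. APOL1, the apolipoprotein that lyses trypanosomes, was the gene that fell. It had 10.8 and 17.4 CPM in the blau tumours, against 20.3 to 27.0 CPM in the Juni2018 tumours (-0.74 ± 0.21, edgeR adjusted p = 0.0402). Of the RNA sensors IFIH1 was higher by 0.63 ± 0.14 (edgeR adjusted p = 0.0154), and DDX60 and DDX58 had values of 0.39 ± 0.14 and 0.16 ± 0.18. PARP9 was higher by 0.57 ± 0.10 (edgeR adjusted p = 0.00596), and it shares exon bases with DTX3L on the opposite strand, so their reads are not fully separated. The feedback inhibitors and immunoproteasome subunits held no called gene by edgeR, DESeq2 or limma voom. PSMB10 had a value of -0.62 ± 0.20 and SOCS3 one of 0.40 ± 0.13, with edgeR adjusted p of 0.0695 and 0.0622.

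**Figure D4:**
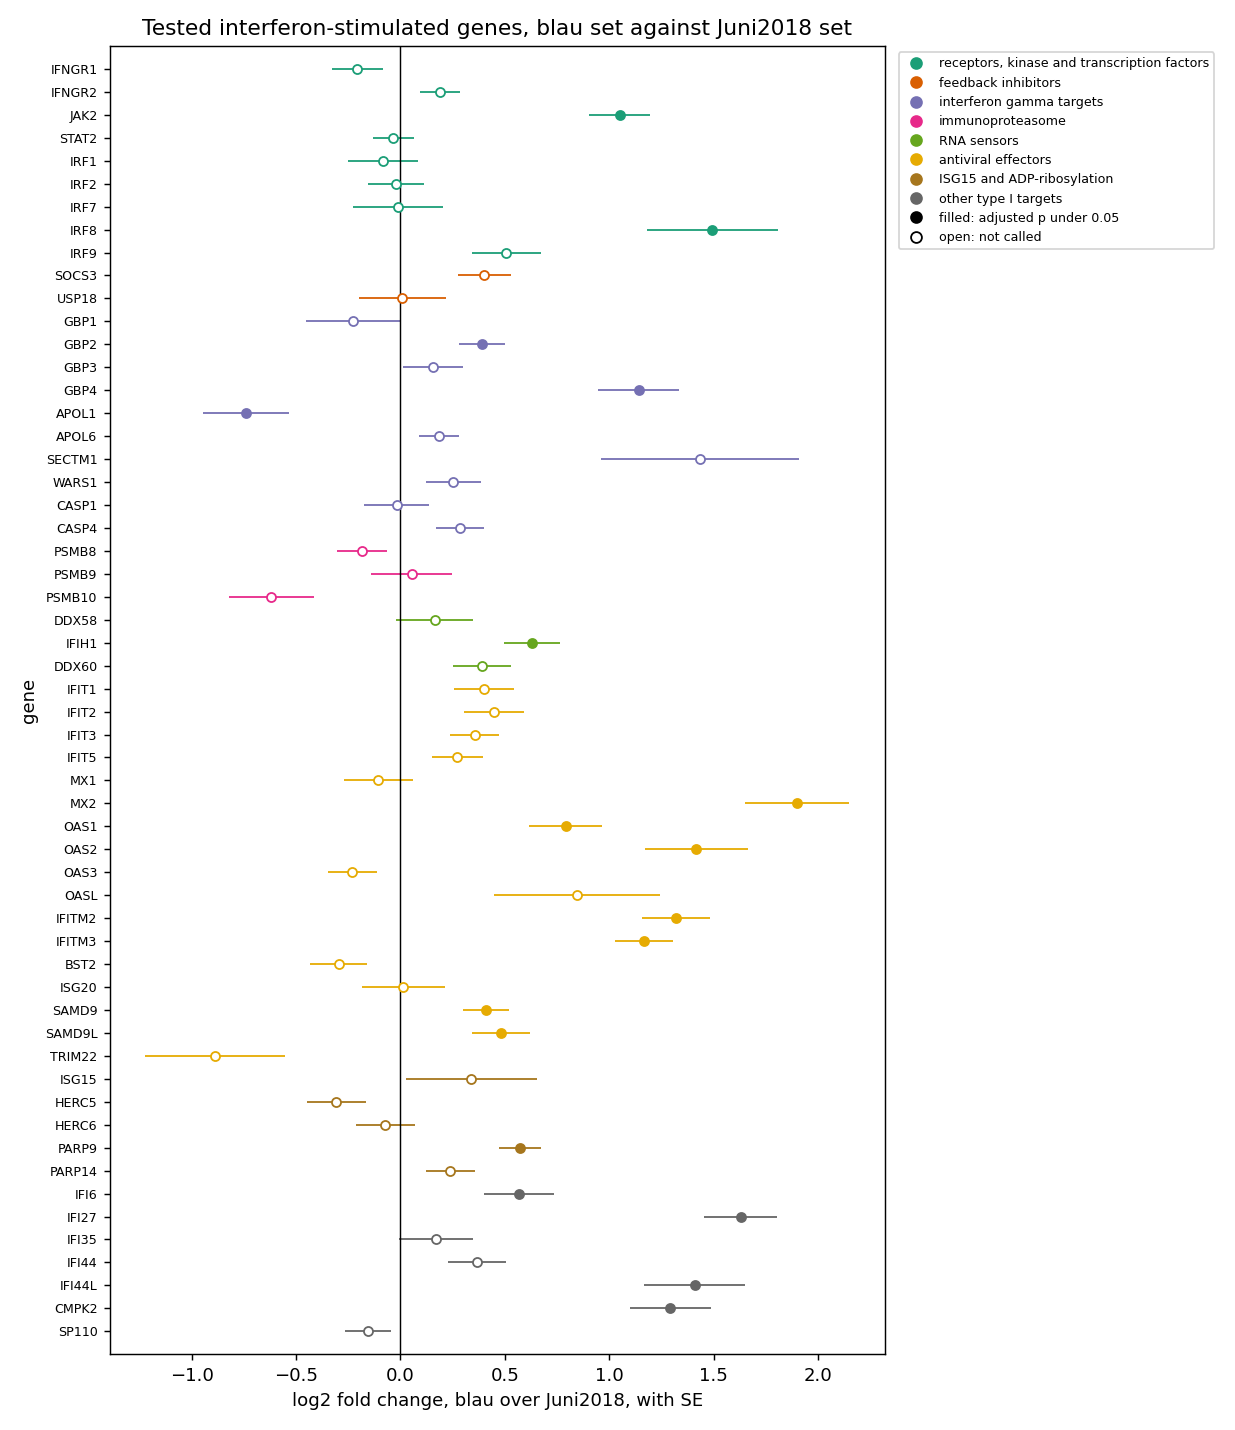
Log2 fold change, blau over Juni2018, with its standard error, for each of the 56 tested genes, coloured by role group and filled where the adjusted p was under 0.05. Of the 18 filled points, 17 lie above 0, led by MX2 at 1.90 and IFI27 at 1.63, and APOL1 lies at -0.74.

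The difference between the sets was also read among treated and among untreated tumours, which share no library. The blau tumour exceeded the Juni2018 mean in both for 35 of 56 genes (62.5%, against 35.3% of all genes). It lay below the mean in both for 11 (19.6%, against 36.1%). On the log2 CPM scale IFI27 differed by 1.82 among treated and 1.43 among untreated tumours. IFITM3 differed by 1.37 among treated and 0.96 among untreated tumours. The 2 values lay further apart for IFI44L, 0.85 among treated and 1.80 among untreated tumours, and for APOL1, -1.25 and -0.27. These genes were called over all 6 libraries, so a shared direction is partly built in. The blau side rests on 2 libraries. Leaving out either of them leaves no replicate in the blau set, so only effect sizes are given for those fits. Without untreated replicate 3 the median log2 fold change of the 56 genes was 0.24, against -0.01 over all genes. Without anle138b replicate 3 it was 0.35, against -0.003 over all genes. Some genes differed between these fits. SAMD9L, IFIH1 and IFI44L had 0.29, 0.41 and 0.89 without untreated replicate 3, against 0.68, 0.85 and 1.83 without anle138b replicate 3. APOL1 had -1.24 without untreated replicate 3 and -0.27 without anle138b replicate 3. Without anle138b replicate 1, GBP2, SAMD9, SAMD9L and APOL1 were not called, and without untreated replicate 1 or untreated replicate 2, GBP2, SAMD9, SAMD9L and IFI6 were not. CMPK2, IFI27, IFITM2, IFITM3, IRF8, JAK2, MX2 and OAS2 had log2 fold changes of at least 0.94 in every alternative that tested them. A response element match was found for 8 of the 13 higher genes with a promoter entry (61.5%) and for 18 of the 30 genes not called between the sets (60%). A gamma-activated site match was found for 2 of the 13 (15.4%) and 11 of the 30 (36.7%). IFI27, IFITM3 and IFI44L, higher in the blau set, and ISG15 and IFIT1, not called, all carry the response element in the stretches printed above.

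**Figure D5:**
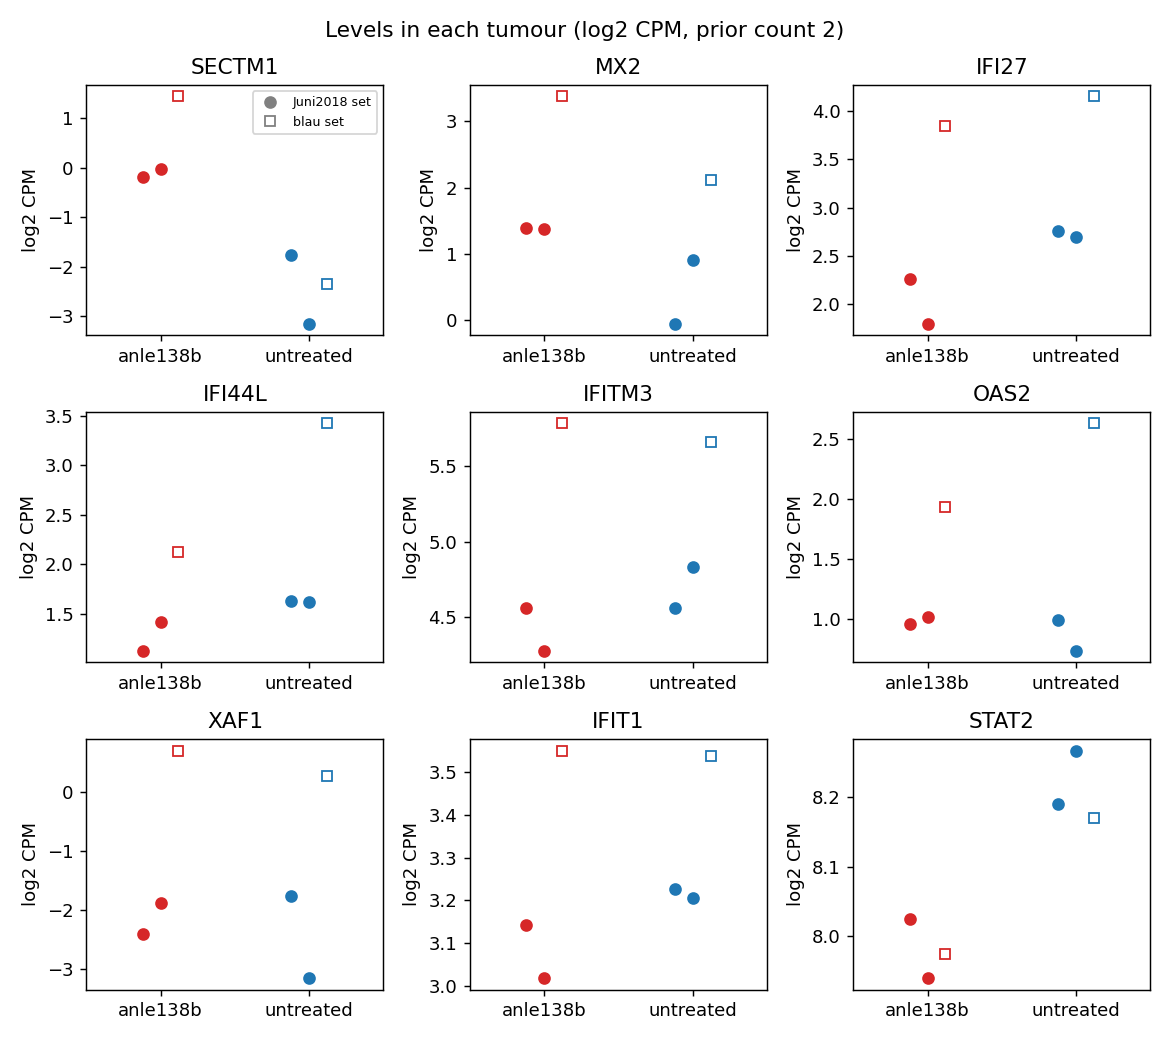
Log2 CPM (prior count 2) of 9 genes in each tumour, anle138b left and untreated right, with filled circles for the Juni2018 set and open squares for the blau set, each panel on its own scale. SECTM1, higher in treated tumours, and STAT2, lower in them and not called, separate by treatment. MX2, IFI27, IFI44L, IFITM3, OAS2, XAF1 and IFIT1 separate by naming set, and STAT2 runs from 245 to 308 CPM.

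Markers of other cell types did not all move one way between the sets. The fibroblast markers (7 genes, with COL1A1 and COL3A1 called higher) summed to 448 to 651 CPM in the blau tumours and 358 to 429 CPM in the Juni2018 tumours. The endothelial markers (6 genes, with KDR called higher) summed to 15.9 to 19.1 CPM in the blau tumours and 8.22 to 11.5 CPM in the Juni2018 tumours, but KDR carried this. Without KDR the other 5 summed to 5.10 to 5.98 CPM in the blau tumours and 6.47 to 9.13 CPM in the Juni2018 tumours. The median log2 fold change of the 5 tested endothelial genes, KDR included, was -0.46. The myeloid markers (11 genes, with ITGAM called higher) summed to 46.3 to 55.3 CPM in the blau tumours and 28.96 to 50.6 CPM in the Juni2018 tumours. The lymphocyte markers summed to 1.06 to 2.67 CPM in the blau tumours and 0.731 to 1.63 CPM in the Juni2018 tumours, and the ranges of both lists overlap. The melanocyte lineage genes (6 genes, with MLANA and S100B called higher) summed to 10910 to 11410 CPM in the blau tumours and 11860 to 15950 CPM in the Juni2018 tumours, most of it from PMEL, which was not called (-0.49 ± 0.20, edgeR adjusted p = 0.125). Skeletal muscle markers (8 genes, with MYH1 and MYH2 called lower) summed to 16.6 to 18.0 CPM in the blau tumours and 31.3 to 69.0 CPM in the Juni2018 tumours. These sums are of human genes and do not measure the amount of host cells in the xenografts. Whether these cell types, or the greater depth of the blau libraries, have a part in the difference was not tested.

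The treatment effect was also compared between the sets, in a fit with an interaction term. Of the 56 genes 0 were called by edgeR, DESeq2 or limma voom, and edgeR called 0% of all genes. By edgeR 3 genes (5.36%) had an unadjusted p under 0.05, against 6.59% of all genes. APOL1 had a treated-minus-untreated difference of -0.68 on the log2 CPM scale in the blau pair and 0.30 in the Juni2018 set. IFI44L had -1.30 and -0.36, and GBP1 had -0.97 and -0.12. The blau values are differences between single libraries.

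Other genes of the pathway were taken from 5 lists drawn up by role. Of their 42 tested genes edgeR called 0 between treated and untreated tumours, against 1.05% of all genes, so 0 is near the background. IRF5, a transcription factor downstream of nucleic acid sensors, was the 1 with an unadjusted p under 0.05 by edgeR (-0.61 ± 0.18, adjusted p = 0.216). Over all genes 8.49% had one. DESeq2 and limma voom called 0 of the 42 as well, against 2.02% and 1.17% of all genes, each with 1 unadjusted p under 0.05. The other interferon targets, 19 of 25 tested, had a median log2 fold change of 0.02 for treatment, and NMI, a partner of STAT proteins, and PARP10 had the smallest p-values among them, with -0.37 ± 0.24 and -0.25 ± 0.17. The receptor chain IFNLR1 of lambda interferon had 0.33 ± 0.21, the kinase JAK1 0.07 ± 0.09, the RNA sensor TLR3 0.32 ± 0.19, and the phosphatase genes PTPN2 and PTPN6, which restrain JAK and STAT signalling, -0.25 ± 0.12 and -0.52 ± 0.33. Between the sets the median of the 19 other targets was -0.11, against 0.28 for the 56 genes above. DTX3L, the ubiquitin ligase partner of PARP9, was higher in the blau set (0.41 ± 0.10, edgeR adjusted p = 0.0232), and PSME1, a proteasome activator subunit, was lower (-0.69 ± 0.15, edgeR adjusted p = 0.0159). IFNLR1 was lower (-1.50 ± 0.23, edgeR adjusted p = 0.00333), IRF5 was lower (-0.76 ± 0.19, edgeR adjusted p = 0.0269) and PTPN2 was higher (0.53 ± 0.13, edgeR adjusted p = 0.0222). These 5 were the called genes of the 42 between the sets by edgeR, or 11.9%, against 15.5% of all genes. The 2 higher are 4.76% and the 3 lower 7.14%, against 8.32% and 7.14% of all genes, so the shares lie at or below the background.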

How the data were processed

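Bulk RNA was extracted with TRIzol from 6 xenograft tumours and made into TruSeq RNA v2 libraries, which do not mark strand, per the labels' protocols. The deposited files hold raw counts per Ensembl gene, made by the authors. The submitters' processing notes name bcl2fastq 2.17.1.14, STAR 2.5.2a, featureCounts 1.5.0-p1 and the build hg38. The sources used here do not state the annotation release, how multi-mapping reads were counted or how mouse reads were treated.

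Groups came from the sample labels and naming sets from the titles. Counts were filtered with filterByExpr by treatment group (minimum count 10, total 15), scaled by TMM and tested with edgeR 4.0.16 in R 4.3.3 (quasi-likelihood, treatment plus naming set, 3 residual degrees of freedom). A second fit added their interaction, with 2 residual degrees of freedom. P-values were adjusted by Benjamini-Hochberg over all 20423 genes, and a call is an adjusted p under 0.05. DESeq2 1.42.0 and limma 3.58.1 served as alternatives. Scripts were tested on simulated data. CPM use the TMM-scaled library sizes, and levels per kilobase divide by the summed exon length in GENCODE 29, which held 58542 of the 60617 identifiers. Replicate libraries differed by a chi-square per degree of freedom of 10.47 to 58.77, so all 6 count as separate. A set of 2 libraries limits the precision of every set comparison.

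The members and the gene lists were chosen with earlier results of these data known. Named by rule were the called members, the 2 of smallest p per role group and contrast, the 5 of highest level per kilobase, those below the filter and, of the pathway lists, the called genes and at most 2 of smallest p. Other members complete their role groups. By exon position, 21 members share bases with another gene, 8 of them with a gene of at least 500 counts.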

Additional observations from a re-analysis of the deposited data

How the results depend on the processing

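Main counts and medians were recomputed with other scalings, filters and tools and without each library. The share of all genes called follows each count in brackets. For treatment, 1 member was called in the analysis above (1.05%), against 0 with no term for the naming set (0.0441%). It was 2 with no filter on low counts (1.62%) and 0 with at least 50 counts in 3 libraries (1.4%). It was 2 by limma voom (1.17%) and 0 in the Juni2018 set alone (0.457%). Leaving out one replicate gave 0 to 2 (0.423% to 1.79%). DESeq2 called MX2 and gave SECTM1 no adjusted p. The count of members called between the sets was 18 (15.5%) and ran from 7 to 22 when one replicate was left out. The 22 came without anle138b replicate 2, where the share of all genes called was also the highest of these fits (27.2%). The 7 came without untreated replicate 3, where the share of all genes was also the lowest. That fit leaves 1 library in the blau set, so no share is given for it. The range therefore says nothing about the members apart from all genes. Members whose treated and untreated values separated within both sets were 13. Treated values lay above for 6 (10.7%, against 9.52% of all genes) and below for 7 (12.5%, against 10.4%). With the stricter filter, which tested 47 members, the count was 8. That count has no share over all genes beside it here, so nothing is drawn from it. The medians moved by less than the spread between replicates under all alternatives run. That spread was 0.13, which exceeds the size of the treatment median of -0.06. The treatment median changed sign to 0.03 without anle138b replicate 3, 0.04 without untreated replicate 3 and 0.03 in the Juni2018 set alone. For single genes, 511 of 520 treatment values kept their side of the threshold, and 0 called values changed sign in either contrast. Nearly all of the 520 treatment values belong to genes that were not called in the analysis above, so they had little room to change side. Among values of genes not called, 44 treatment values and 17 set values changed sign. SECTM1 passed in 10 of its 14 alternatives for treatment and MX2 in 5 of its 15. SECTM1 entered through the treated tumours alone, so its passes, also within the treatment counts above, support nothing further. The cause of the changes between alternatives was not tested. No paired analysis was possible because the titles share no replicate number between groups, and the numbers used here only name libraries. SOCS1 had 2 to 11 counts in each library, which limits what a test of it can show. SECTM1, XAF1 and EPSTI1 had few counts outside the tumours where they are high, so whether they enter a test depends on the filter.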

Other observations

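Only human genes are counted, so interferon transcripts of host cells were not measured. The human interferon genes were near 0 in these tumours except for IFNK. It had 18, 19 and 51 counts in treated against 16, 19 and 28 counts in untreated tumours. Of 21 listed, 6 had no count in any library, IFNG among them, and IFNB1 had 1 count, in untreated replicate 3. The 13 alpha interferon genes, a family of near-identical copies whose counts are uncertain, summed to 37 and 62 counts in the treated and the untreated blau tumour, against 0 to 3 counts in the Juni2018 tumours. IFNA14 held 6 and 25 of these counts in the blau tumours and 0 in each Juni2018 tumour, and IFNA7 held 13 and 13, against 0 to 1. CXCL9, a chemokine induced by gamma interferon, had 3 and 8 counts in the blau tumours and 0 in each Juni2018 tumour. Apart from IFNK none of these genes passed the filter on low counts, so no test was made of them, and the blau libraries are also the deeper ones.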
